A study of Mus musculus with 61 samples.

Results

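The genes described here encode the killing machinery and the identity receptors of natural killer (NK) cells and cytotoxic T cells. A list of 10 genes was matched by symbol to the deposited count table, and 9 of its 21169 genes were found: Gzma, Gzmb, Prf1, Nkg7, Klrb1c, Klrk1, Klrd1, Ncr1 and Ccl5. The expression of Gzmk, the remaining gene on the list, is not analysed here. RNA from adipose tissue was sequenced in 61 libraries from the 8 inbred strains that founded the Diversity Outbred mice, all fed a high-fat, high-sugar diet of 45 percent fat by the labels. The strains, named as in the labels, are NZO, B6, AJ, NOD, 129, WSB, PWK and Cast, with 8 libraries each for NZO, B6, NOD, WSB and PWK and 7 each for AJ, 129 and Cast. Every strain shares the diet, and no chow-fed group is used here. Fat depot, sex, age and batch are not stated in the labels, and the labels do not say that the libraries of a strain came from separate animals, so the p values measure the spread between these libraries. NZO is an inbred strain known for polygenic obesity, NOD for autoimmune diabetes, and Cast, PWK and WSB derive from wild mice.

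NK cells and cytotoxic T cells kill by releasing granules at the surface of a target cell. Perforin, the product of Prf1, opens the target membrane, and the granzymes, serine proteases such as those encoded by Gzma and Gzmb, enter and start cell death. NK cells decide whether to release their granules by weighing activating against inhibitory surface receptors, many of which are encoded side by side in the NK gene complex of mouse chromosome 6. Both cell types live in adipose tissue, where they are known as sources of interferon gamma and as partners of macrophages in obesity.

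All of these transcripts were scarce. Library totals ran from 19851552 to 61277574 counts, so 1 read was worth between 0.0155 and 0.0639 CPM (counts scaled to library size by TMM), and strain means of the members lay between 0.0502 and 5.65 CPM. The summed CPM of 5 adipocyte markers ran from 7811 to 22024 over these bulk libraries. All sums over gene lists, here and below, are CPM of the library total without TMM. In such bulk samples fewer cells of a type and less RNA per cell cannot be told apart. Of the 61 libraries 9 were rich in transcripts of liver or skeletal muscle (over 500 CPM) or of neutrophils (over 100 CPM), namely NZO replicate 8, AJ replicates 3, 4 and 8, PWK replicates 2, 4, 6 and 7 and Cast replicate 3. The comparisons of each strain with the other 7, and of the wild-derived strains with the rest, were rerun without them. Counts of called members in these comparisons are given without them where a call changed. Strain pairs, ratios and gene lists were not rerun without them.

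On genome build GRCm38, Klrd1 (chromosome 6, 129591782 to 129598775, plus strand) and Klrk1 (chromosome 6, 129610323 to 129623864, minus strand) lay 11548 bases apart, and Klrb1c (chromosome 6, 128778485 to 128789215, minus strand) lay 802567 bases from Klrd1. The other members were spread over the genome, with Ncr1 (4337724 to 4345164) and Nkg7 (43437073 to 43438249) on chromosome 7, Prf1 on chromosome 10 (61297836 to 61304263), Ccl5 on chromosome 11 (83525778 to 83530518), Gzma on chromosome 13 (113093825 to 113100979) and Gzmb on chromosome 14 (56258856 to 56262260). RefSeq promoter windows of 300 bases (build GRCm38.p6) were matched for 8 of the 10 listed genes, Klrd1 and Ccl5 being the others. They were searched on both strands for GGTGTGA, a core of the sites bound by T-box factors such as T-bet and eomesodermin, and for TGTGGTT, a core of Runx sites, since factors of both families direct NK and cytotoxic T cell genes. The T-box core was in the windows of 2 of these 8 genes, Nkg7 and Gzmk, and in 3.98% of 32851 promoters of the same length. The Runx core was in 4 of the 8, Gzma, Gzmb, Klrk1 and Ncr1, and in 5.27% of promoters. The windows of Klrb1c and Prf1 held neither. A match is a string of letters and not a shown binding site. The windows of 6 members are shown here 5′ to 3′ along the gene's own strand, and those of Prf1 and Gzmk are not shown. The window of Klrb1c lies within the gene span given above. All are reference sequence and hold no strain differences. The matched core is in capitals (in Gzma it is read on the opposite strand, as AACCACA). The core began 51 bases before the start in Gzma, 34 in Gzmb, 13 in Nkg7, 176 in Ncr1 and 129 in Klrk1.
Gzma (chr13:113100932-113101231, minus strand): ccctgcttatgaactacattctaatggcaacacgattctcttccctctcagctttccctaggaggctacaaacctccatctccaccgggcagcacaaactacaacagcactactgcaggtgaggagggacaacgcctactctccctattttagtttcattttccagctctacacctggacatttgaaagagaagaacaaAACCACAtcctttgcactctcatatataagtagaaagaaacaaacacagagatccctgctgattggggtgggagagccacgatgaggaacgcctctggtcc
Gzmb (chr14:56262285-56262584, minus strand): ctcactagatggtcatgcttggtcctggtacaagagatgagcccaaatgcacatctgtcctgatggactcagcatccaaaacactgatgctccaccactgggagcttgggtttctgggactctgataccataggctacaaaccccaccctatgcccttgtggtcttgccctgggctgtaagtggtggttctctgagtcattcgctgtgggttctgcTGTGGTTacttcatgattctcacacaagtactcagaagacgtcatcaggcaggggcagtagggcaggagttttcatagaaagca
Nkg7 (chr7:43436888-43437187, plus strand): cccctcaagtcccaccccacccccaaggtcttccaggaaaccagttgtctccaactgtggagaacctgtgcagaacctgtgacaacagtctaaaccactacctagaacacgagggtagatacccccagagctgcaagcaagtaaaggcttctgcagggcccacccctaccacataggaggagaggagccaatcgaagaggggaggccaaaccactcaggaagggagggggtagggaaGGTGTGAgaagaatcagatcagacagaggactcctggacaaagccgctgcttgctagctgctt
Ncr1 (chr7:4337465-4337764, plus strand): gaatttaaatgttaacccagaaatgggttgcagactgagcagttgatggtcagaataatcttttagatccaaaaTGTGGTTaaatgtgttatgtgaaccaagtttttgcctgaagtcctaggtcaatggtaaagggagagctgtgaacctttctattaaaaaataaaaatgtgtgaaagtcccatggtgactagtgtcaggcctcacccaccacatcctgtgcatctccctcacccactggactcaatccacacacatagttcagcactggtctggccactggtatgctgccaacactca
Klrk1 (chr6:129623815-129624114, minus strand): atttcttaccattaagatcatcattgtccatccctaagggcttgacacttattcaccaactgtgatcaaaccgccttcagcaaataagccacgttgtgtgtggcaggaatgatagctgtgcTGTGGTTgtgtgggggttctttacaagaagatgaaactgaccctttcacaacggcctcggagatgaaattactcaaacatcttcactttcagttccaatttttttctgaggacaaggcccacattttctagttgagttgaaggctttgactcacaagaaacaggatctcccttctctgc
Klrb1c (chr6:128788592-128788891, minus strand): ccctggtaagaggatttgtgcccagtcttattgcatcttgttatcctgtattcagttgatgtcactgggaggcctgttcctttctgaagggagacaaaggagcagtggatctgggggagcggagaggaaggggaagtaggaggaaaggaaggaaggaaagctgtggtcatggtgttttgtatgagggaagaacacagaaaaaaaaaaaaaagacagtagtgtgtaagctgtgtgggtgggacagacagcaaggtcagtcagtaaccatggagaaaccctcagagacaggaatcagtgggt

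All 9 transcripts differed among the strains, and NZO had the highest mean for each of them. The F-test of edgeR over 8 strains called each of the 9, with adjusted p from 1.15e-17 for Gzma to 3.06e-13 for Gzmb, and it called 89.9% of the 18603 genes tested. Cast was the lowest strain for 8 members, and 129 for Klrb1c. The strain mean of NZO exceeded that of the lowest strain by 90.2 times for Gzma, 36.1 for Klrd1, 27.7 for Gzmb, 24.2 for Nkg7, 21.4 for Ncr1, 15.6 for Prf1, 13.9 for Ccl5, 12.3 for Klrk1 and 9.6 for Klrb1c. All 9 passed the filter on low counts, which left 18603 genes; between 20 (Gzmb) and 48 (Ccl5) of the libraries outside NZO exceeded its CPM limit.

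**Figure D1:**
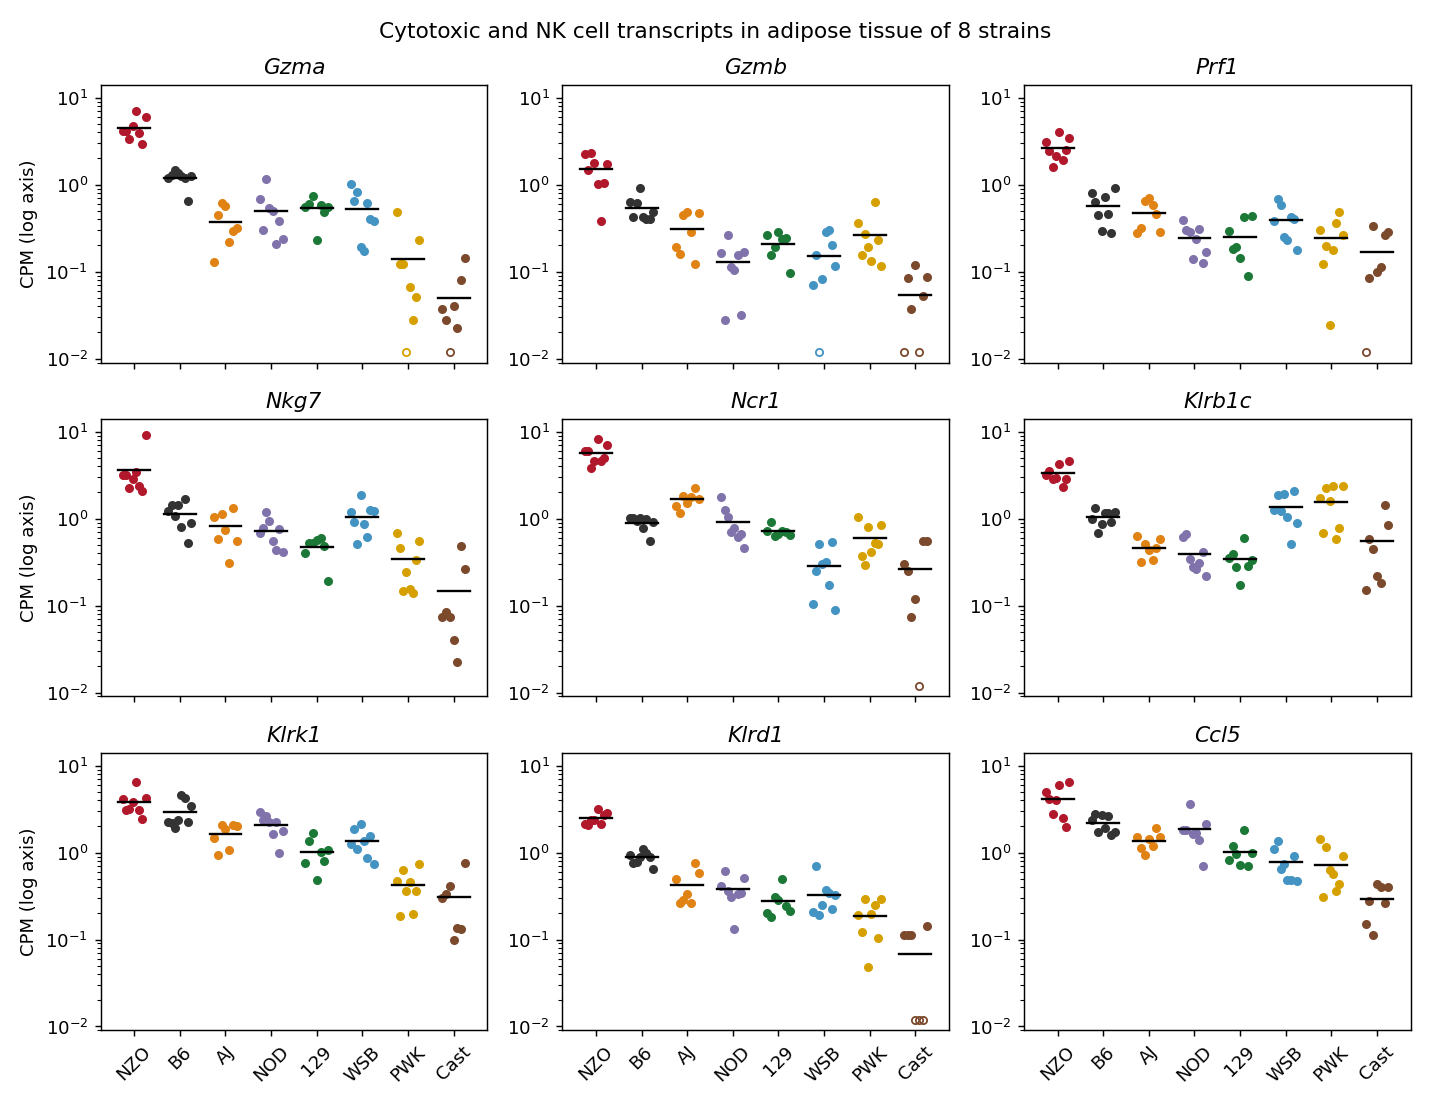
CPM of the 9 transcripts in every library (points) with the strain mean (line), on a log axis; open points at the lower edge are libraries with 0 reads. NZO has the highest mean in each panel, and the strains below it come in a different order for Klrb1c, where PWK and WSB follow, than for Gzma or Klrk1, where B6 follows.

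Among the granule proteins, Gzma, which encodes granzyme A, showed the widest span. Its 8 NZO libraries had 2.94 CPM at the lowest, 4.11 at the median and 7.1 at the highest, against 0.648, 1.25 and 1.47 CPM in B6, 0.173, 0.509 and 1.01 CPM in WSB, 0 to 0.488 CPM in PWK and 0 to 0.144 CPM in Cast. No NZO library overlapped any other library. Counts behind the Cast values were 0 to 5 reads. The log2 fold change of NZO against the mean of the other 7 strains was 3.75 ± 0.31 (standard error, adjusted p = 4.19e-19 in edgeR), and that of Cast against its other 7 strains was −3.56 ± 0.46 (adjusted p = 8.06e-09). In the order NZO, B6, 129, WSB, NOD, AJ, PWK, Cast, the neighbours NZO and B6, AJ and PWK, and PWK and Cast differed, while the 4 steps between did not pass the test.

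Gzmb, which encodes granzyme B, was less abundant and more scattered. It ran from 0.382 to 2.33 CPM in NZO (median 1.62) and from 0.399 to 0.919 CPM in B6 (median 0.453), so the lowest NZO library fell within the range of B6. NZO exceeded the other 7 strains by 2.93 ± 0.31 on the log2 scale (adjusted p = 1.41e-14 in edgeR) and B6 alone by 1.49 ± 0.41 (adjusted p = 0.0037). PWK held Gzmb at 0.262 ± 0.172 CPM (SD, n = 8), 0.06 ± 0.33 on the log2 scale from the other 7 (adjusted p = 0.887), although Gzma fell in PWK by 1.94 ± 0.35 (adjusted p = 3.93e-05). NOD, with 0.128 ± 0.077 CPM (SD, n = 8), was lower than the other strains (−1.08 ± 0.35 on the log2 scale, adjusted p = 0.0213).

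Prf1, the perforin gene, had 1.59, 2.46 and 3.99 CPM in NZO (lowest, median, highest) against 0.274, 0.543 and 0.913 CPM in B6 and 0, 0.112 and 0.336 CPM in Cast. All NZO libraries lay above all others, by 3.09 ± 0.28 on the log2 scale (adjusted p = 3.92e-17 in edgeR). Below NZO the strains were less separated: each of the 6 steps from B6 through AJ, WSB, 129, NOD and PWK to Cast did not pass the test. Nkg7, a membrane protein of cytotoxic granules, had 2.07, 3 and 9.25 CPM in NZO against 0.511, 1.05 and 1.84 CPM in WSB and 0.0225, 0.0748 and 0.477 CPM in Cast. The highest value belongs to NZO replicate 8, a library rich in neutrophil transcripts, and the next NZO library had 3.47 CPM. NZO was 2.68 ± 0.28 higher on the log2 scale (adjusted p = 1.05e-14), with no overlap.

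The receptors followed the same extremes but not the same order. Ncr1 encodes NKp46, an activating receptor found on NK cells and related innate lymphoid cells and hardly on other blood cells. It had 3.85, 5.47 and 8.24 CPM in NZO (lowest, median, highest), 1.15, 1.7 and 2.24 CPM in AJ, 0.0879, 0.275 and 0.535 CPM in WSB and 0, 0.252 and 0.557 CPM in Cast. NZO libraries were all above every other library, and AJ came second, as B6 did for 7 other members. The log2 fold change was 3.14 ± 0.26 in NZO (adjusted p = 7.77e-19 in edgeR), 1.12 ± 0.28 in AJ (adjusted p = 0.000615), −1.80 ± 0.28 in WSB (adjusted p = 4.49e-06) and −1.90 ± 0.30 in Cast (adjusted p = 3.37e-06). WSB and Cast did not differ from each other beyond their error (0.09 ± 0.39, adjusted p = 0.872).

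Klrd1 encodes CD94, which pairs with NKG2 receptors to read MHC class I levels. It had 2.05, 2.39 and 3.16 CPM in NZO, 0.65, 0.893 and 1.09 CPM in B6, and 0 to 0.144 CPM in Cast, where 3 of 7 libraries had no read. The groups did not overlap, and NZO exceeded the other 7 by 3.10 ± 0.28 on the log2 scale (adjusted p = 1.49e-17 in edgeR). Klrk1 encodes NKG2D, an activating receptor for stress-induced ligands that is also carried by CD8 T cells. It had 2.42, 3.51 and 6.41 CPM in NZO and 1.89, 2.32 and 4.61 CPM in B6, ranges that overlap. Klrk1 was the only member for which NZO did not pass the test against B6 (0.39 ± 0.29, adjusted p = 0.308), while B6 exceeded its other 7 strains by 1.36 ± 0.22 (adjusted p = 2.46e-07) and NOD exceeded its own other 7 by 0.82 ± 0.22 (adjusted p = 0.00194). PWK, at 0.424 ± 0.193 CPM (SD, n = 8), and Cast, at 0.309 ± 0.228 CPM (SD, n = 7), were the lowest strains for Klrk1 and did not differ beyond their error (0.47 ± 0.33, adjusted p = 0.238).

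Klrb1c, an activating receptor of the NKR-P1 family and the classical NK cell surface antigen of B6 mice, departed from the rest. It had 2.32, 3.04 and 4.6 CPM in NZO (lowest, median, highest), 0.582, 1.66 and 2.4 CPM in PWK, 0.511, 1.23 and 2.07 CPM in WSB, 0.688, 1.07 and 1.31 CPM in B6, 0.15, 0.447 and 1.43 CPM in Cast, and 0.171, 0.335 and 0.6 CPM in 129. PWK, the second lowest strain for 6 members, was here the second highest, and 129, AJ and NOD were lowest. Klrb1c rose in NZO (2.26 ± 0.24, adjusted p = 3.85e-14 in edgeR), PWK (1.00 ± 0.24, adjusted p = 0.000224) and WSB (0.78 ± 0.24, adjusted p = 0.00403), and fell in 129 by 1.45 ± 0.27, in NOD by 1.27 ± 0.25 and in AJ by 0.97 ± 0.26 (adjusted p = 0.000179, 0.000322 and 0.00881). It was also lower in Cast (−0.69 ± 0.26, adjusted p = 0.0307), a call that was lost without Cast replicates 5 and 6 (−0.35, adjusted p = 0.332).

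Counts of Klrb1c are less certain than those of the other members. Its read estimates lay more than 1e-06 from a whole number in 15 of 61 libraries, as happens where reads are divided among similar genes, and this held for 7 of 8 NZO libraries and 0 of 8 PWK libraries. A second gene model, Gm44511, overlaps it on the same strand in the GENCODE annotation. Its 3 relatives in the table, which encode receptors of the same family, each had another strain pattern. Klrb1a averaged 2.01 ± 0.489 CPM in NZO (SD) and 1.05 ± 0.492 CPM in 129, and 0.0114 CPM in Cast, where all 7 libraries together held 3 reads. Klrb1b, with estimates that were not whole by the same tolerance in all 8 NZO and all 8 NOD libraries, averaged 2.17 ± 1.36 CPM in NZO, 1.78 ± 1.3 CPM in WSB, 1.62 ± 0.487 CPM in NOD, 0.167 ± 0.183 CPM in PWK and 0.145 ± 0.14 CPM in 129. Klrb1f, with whole counts throughout by that tolerance, averaged 0.75 ± 0.317 CPM in NZO, 0.0554 ± 0.0445 CPM in WSB and 0.0454 ± 0.0415 CPM in Cast. The high Klrb1c of PWK stood beside low Klrb1b, and the low Klrb1c of NOD and 129 beside high Klrb1b in NOD and high Klrb1a in 129. In other strains the levels went together. WSB was high for both Klrb1c and Klrb1b, and AJ was low for both, with Klrb1b at 0.2 CPM. NZO had the highest mean of Klrb1c and of each relative. Whether divided reads contribute to these patterns was not tested.

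Ccl5, the chemokine RANTES made by activated T and NK cells and by macrophages, had 1.95, 4.07 and 6.44 CPM in NZO (lowest, median, highest), 1.57, 2.12 and 2.76 CPM in B6, 0.693, 1.75 and 3.66 CPM in NOD and 0.112, 0.28 and 0.439 CPM in Cast. NZO overlapped B6 and NOD, and its log2 fold change was 2.04 ± 0.22 against the other 7 strains (adjusted p = 5.67e-14 in edgeR) and 0.91 ± 0.29 against B6 (adjusted p = 0.00981). Cast was below its neighbour in the order, PWK, by a clear step: PWK against Cast gave 1.28 ± 0.31 (adjusted p = 0.000754). Per kilobase of exon, the members also ranked differently by strain. The length used joins all annotated exons of a gene, 7183 bases for Klrk1 and 914 to 2961 bases for the other members. Before this division Klrk1 averaged 3.8 CPM in NZO, so its low place per kilobase depends on that length. In NZO the mean level was 4.5 CPM per kb for Gzma, 4.26 for Ccl5, 3.91 for Nkg7, 3.67 for Ncr1, 1.93 for Klrd1, 1.12 for Klrb1c, 1.05 for Gzmb, 1.02 for Prf1 and 0.53 for Klrk1. In B6 Ccl5 led with 2.26 CPM per kb and in Cast with 0.306 CPM per kb, where Gzma stood at 0.0499 CPM per kb.

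Counted over the 9 members, each strain against the other 7 gave a different profile. In NZO 9 of 9 were called higher, where 27.2% of all genes tested were, and the median log2 fold change was 2.93 against −0.02 over all genes. In Cast 9 of 9 were called lower, against 26.6% of all genes, with a median of −2.34 against 0.02. B6 had 6 called higher, against 14.6% of genes, and none lower (11.7% of genes), the 6 being Gzma, Gzmb, Nkg7, Klrk1, Klrd1 and Ccl5. PWK had 6 called lower (19% of genes) and 1 higher (24.6%). Without the 9 libraries named above, 4 of them PWK libraries, this became 2 lower and 1 higher: Prf1, Nkg7, Klrd1 and Ccl5 no longer passed, with adjusted p of 0.128, 0.0792, 0.193 and 0.44 in edgeR. Their log2 fold changes were then −0.82 for Prf1, −0.98 for Nkg7, −0.75 for Klrd1 and −0.32 for Ccl5, against −0.84, −1.20, −1.14 and −0.80 with all libraries. Over all genes, 5070 of 19090 were then called in PWK in either direction, against 8105 of 18603 with all libraries. WSB had 2 higher, Klrb1c and Nkg7 (25.6% of genes), and 2 lower, Ncr1 and Ccl5 (23.7%). NOD had 2 higher, Klrk1 and Ccl5 (14.7% of genes), and 2 lower, Klrb1c and Gzmb (11.8%). AJ had 1 higher, Ncr1 (13.4% of genes), and 1 lower, Klrb1c (9.59%), and 129 had Klrb1c lower (7.78% of genes) and none higher (10.8% of genes). Shares of 1 or 2 members of 9 are near those backgrounds. The count in 129 was 2 with DESeq2 and 3 with limma on the variance-stabilised values, and limma ended the calls of Nkg7 in B6 and WSB and of Ccl5 in NOD (adjusted p = 0.109, 0.186 and 0.123).

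**Figure D2:**
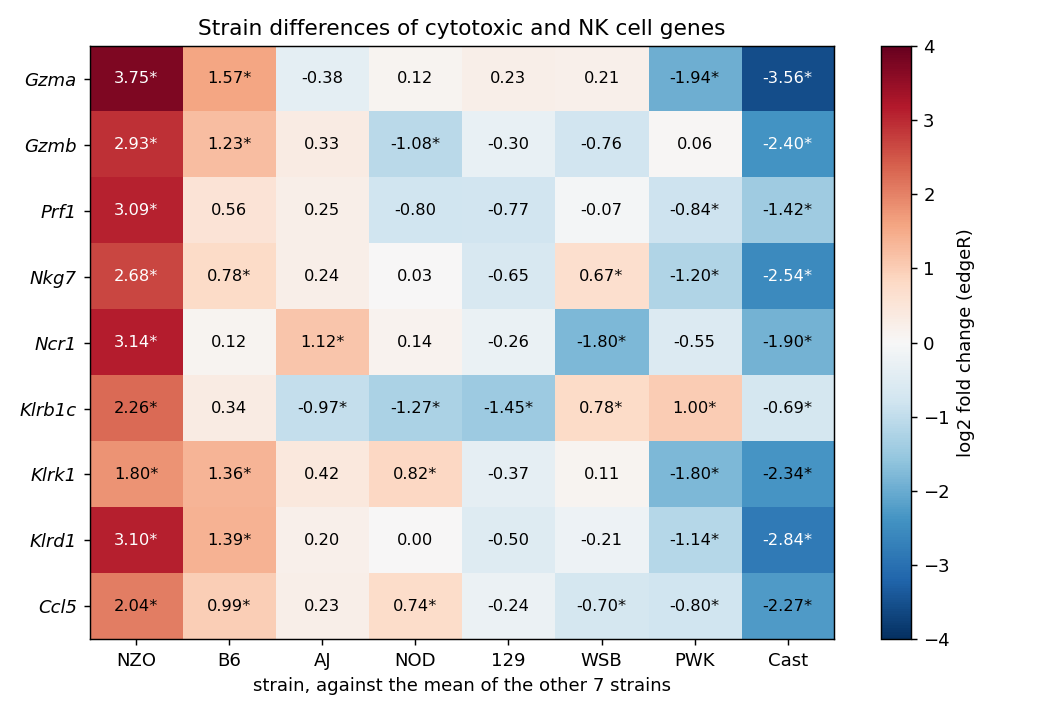
Log2 fold change of each transcript (rows) in each strain against the mean of the other 7 strains (columns); an asterisk marks an adjusted p under 0.05 in edgeR. The NZO column is positive throughout, the Cast column negative throughout, and the Klrb1c row is positive in PWK and WSB and negative in 129, NOD and AJ.

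Libraries of NZO lay above all others without overlap for 5 of 9 members (Gzma, Prf1, Nkg7, Klrd1 and Ncr1), as they did for 0.629% of all genes. No member separated any other strain from the rest in this way. Against single strains, NZO was called higher for 9 of 9 members against AJ (18.6% of all genes), NOD (19.9%), 129 (21%), WSB (28%), PWK (26.7%) and Cast (29.3%), and for 8 of 9 against B6 (18.7%). These comparisons share the NZO libraries. Taken as groups, the 3 wild-derived strains had 8 members lower than the 5 classical strains (31.2% of all genes) and 1 higher (33.1%). The largest of these differences was −2.47 ± 0.25 for Gzma (adjusted p = 3.27e-12 in edgeR), and the exception was Klrb1c (0.51 ± 0.17, adjusted p = 0.00753), whose call was lost in limma on the variance-stabilised values (0.08, adjusted p = 0.213). NZO is one of the classical strains and Cast one of the wild-derived, so this contrast holds both extremes.

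Ratios between members within a library were used to compare members without the library's overall level of these transcripts. The log2 ratio of Klrb1c to Ncr1 averaged 2.12 ± 0.72 in WSB, 1.21 ± 0.91 in PWK and 1.00 ± 1.00 in Cast (SD, n = 8, 8 and 7), against 0.18 ± 0.38 in B6, −0.76 ± 0.19 in NZO, −1.02 ± 0.42 in 129, −1.11 ± 0.33 in NOD and −1.74 ± 0.39 in AJ. Every library of WSB and PWK was above 0, and every library of NZO, 129, NOD and AJ below it. Strain accounted for 83.4% of the variance of this ratio (permutation of strain labels, p = 1e-05, adjusted p = 1e-05 over 4 ratios, the smallest value that 100000 permutations give). In pooled counts, WSB had 4.84 reads of Klrb1c for each read of Ncr1 and AJ had 0.28.

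The ratio of Ncr1 to Cd3e, a subunit of the T cell receptor complex, sets 1 NK cell transcript against 1 T cell transcript. Its log2 mean was 2.07 ± 0.61 in NZO, 0.61 ± 0.53 in AJ and 0.45 ± 1.32 in Cast, and −2.25 ± 0.90 in WSB (SD), with 74.4% of its variance between strains (permutation p = 1e-05, the smallest possible). NZO and WSB had close means of Cd3e, 1.4 ± 0.679 CPM in NZO and 1.44 ± 0.524 CPM in WSB (SD, n = 8 each), while Ncr1 stood at 5.65 ± 1.44 CPM in NZO and 0.284 ± 0.17 CPM in WSB. Of 21 T cell genes 19, Cd3e among them, were called higher in NZO against the other 7 strains. The summed level of the list, scaled to library totals without TMM, had a median of 86.5 CPM in NZO and 41.1 CPM in WSB. TMM factors ran from 1.06 to 1.24 in NZO and from 0.768 to 0.993 in WSB. Scaling by them would narrow this gap. In Cast both were low, Cd3e at 0.159 ± 0.11 CPM and Ncr1 at 0.264 ± 0.222 CPM (SD, n = 7).

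**Figure D3:**
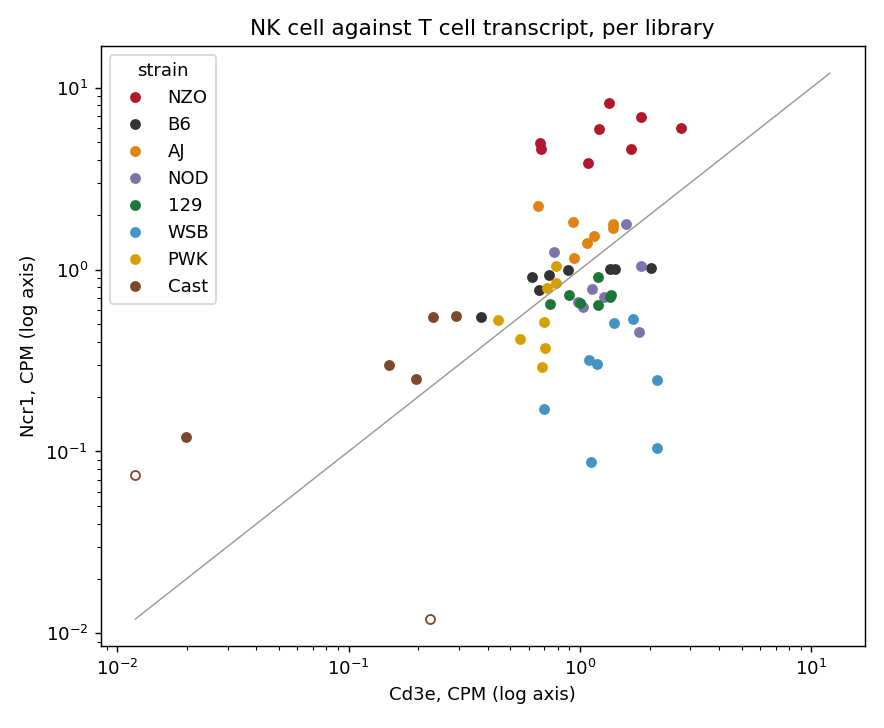
CPM of Ncr1 against CPM of Cd3e in each of the 61 libraries, on log axes, coloured by strain; the line marks equal CPM and open points, set near the axis ends, have 0 reads for one of the genes. NZO and WSB libraries overlap along the Cd3e axis while NZO lies above the line and WSB below it; Cast lies low on both axes.

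For Klrd1 and Klrk1, neighbours on chromosome 6, the log2 ratio averaged −0.57 ± 0.36 in NZO and −0.99 ± 0.69 in PWK, the 2 highest strains, and −2.35 ± 0.63 in NOD, the lowest (SD, n = 8 each), with 51.3% of the variance between strains. The ratio of Gzma to Gzmb averaged 1.66 ± 0.89 in NZO, 1.58 ± 0.78 in NOD, 1.56 ± 1.47 in WSB, −0.05 ± 0.75 in Cast and −0.94 ± 1.32 in PWK, with 50.3% between strains. PWK pooled 46 reads of Gzma and 83 of Gzmb, while NZO pooled 1562 and 545. The lowest PWK ratios of Gzma to Gzmb came from libraries rich in liver or neutrophil transcripts. They were −3.14 in replicate 6, −2.27 in replicate 4 and −1.47 in replicate 7, and the remaining PWK libraries ran from −0.89 to 0.76. Neither ratio was tested without the rich libraries. Both ratios had a permutation p of 1e-05, again the smallest possible.

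**Figure D4:**
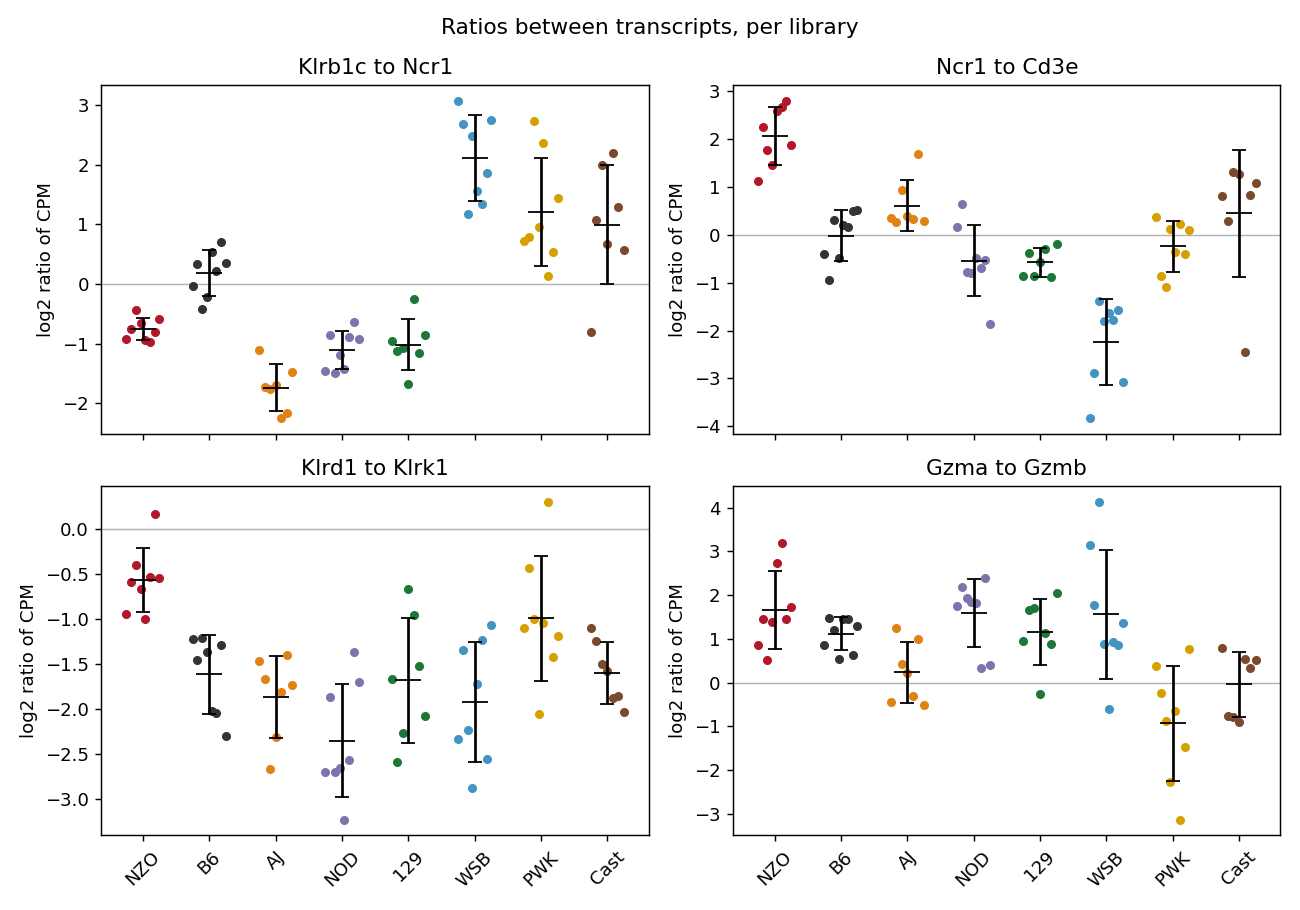
Log2 ratio of CPM between pairs of transcripts in each library (points), with strain mean and SD (bars). Klrb1c to Ncr1 is above 0 in all WSB and PWK libraries and below 0 in all NZO, AJ, NOD and 129 libraries, and Ncr1 to Cd3e is highest in NZO and lowest in WSB.

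Across the 61 libraries the members varied together, with Pearson r between pairs from 0.386 to 0.85 and a median of 0.72 over 36 pairs. Once the strain means were subtracted, the median was 0.25 (range −0.07 to 0.54), lower than before the subtraction. Over the 8 strain means, pairs without Klrb1c ranged from 0.714 to 0.97 and pairs with it from 0.358 to 0.753. These values are descriptions, since points share strain and library scale. The gene outside the list whose log2 CPM was most like the members' mean over 61 libraries was Clec2i (r = 0.91), a lectin-like ligand of NKR-P1 receptors, at 17.4 CPM in NZO and 0.131 CPM in Cast, followed by Spn (0.90), P2rx7 (0.90), Samd3 (0.90), Samhd1 (0.89) and Arhgap4 (0.89). With strain means subtracted the closest were Ctsw (r = 0.77), a cathepsin of NK and cytotoxic T cells, Il2rb (0.73), the receptor chain shared by interleukin 2 and interleukin 15, Cd2 (0.66), Cd226 (0.60), Samd3 (0.60) and Ikzf3 (0.60).

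Lists of genes related to the NK pathway were also read, and their calls are not shown to come from NK cells. The granule and release list had a median sum of 1421 CPM in NZO, against 33.6 CPM for the 9 members. Most macrophage markers were also called higher in NZO. Which cells the transcripts of these lists came from was not tested. Of 33 NK receptor and adaptor genes tested, all 33 were called higher in NZO, with a median log2 fold change of 2.28 (27.2% of all genes, median −0.02). Largest among those of at least 1 CPM were Fcgr4 (3.48 ± 0.32), Klra13-ps (3.25 ± 0.37) and Klra2 (2.65 ± 0.27) of the Ly49 family, and Slamf7 (2.36 ± 0.25). Fcgr4 encodes an Fc receptor of macrophages, so this list is not limited to genes of NK cells. Ly49 genes are near-copies of each other and their counts are uncertain. Of 15 granule and release genes 13 rose in NZO (median 0.53), led by Stx11 (1.27 ± 0.22), Stxbp2 (0.95 ± 0.08) and Unc13d (0.94 ± 0.14), which dock and prime granules, and Srgn (0.82 ± 0.13), the granule proteoglycan. Gzmm (−0.48 ± 0.29) and Rab27a (−0.02 ± 0.21) did not pass the test. Transcription factors rose in 10 of 13 (median 1.47), among them Irf8 (2.00 ± 0.15), Prdm1 (1.72 ± 0.16), Runx3 (1.51 ± 0.21) and Ikzf3 (1.47 ± 0.22), and Ikzf2 fell by 0.48 ± 0.17. Eomes, the T-box factor of NK cells and one of the fixed NK markers, rose by 2.92 ± 0.33 on the log2 scale.

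Ligands, cytokines and chemokines moved less uniformly in NZO. Of 9 ligands of NK receptors 6 were higher (median 1.59), where 27.2% of all genes were higher and 26.6% lower, with Clec2i (3.82 ± 0.17), Cd48 (1.84 ± 0.15), Ulbp1 (1.59 ± 0.22), a ligand of NKG2D, and H2-T23 (0.98 ± 0.13), which presents the peptide read by CD94. Of 15 cytokine and receptor genes 9 were higher and 2 lower (median 0.84), the share of lower genes being under that of all genes. The higher ones included the receptor genes Il18rap (2.17 ± 0.29), Il10ra (1.96 ± 0.14), Il21r (1.83 ± 0.28) and Il2rb (1.75 ± 0.20), and the lower were Il15ra (−0.59 ± 0.15), which presents interleukin 15 to NK cells, and Il18 (−0.46 ± 0.14). Of 18 genes for chemokines and their receptors 15 were higher and Cxcl11 was lower (−1.02 ± 0.26; median of the list 1.05). Among the higher ones were Cx3cr1 (2.03 ± 0.34), Ccr3 (1.67 ± 0.42) and Cxcl10 (1.20 ± 0.35).

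**Figure D5:**
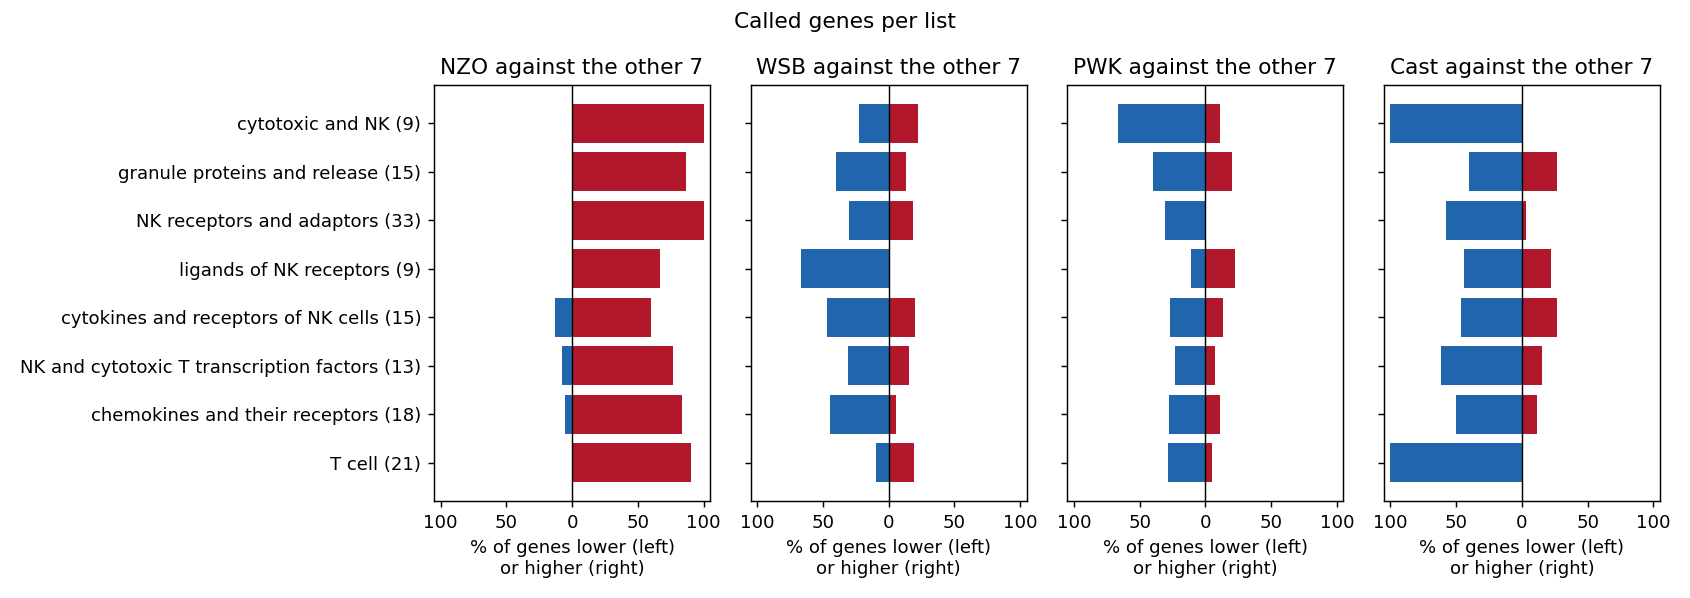
Percent of the tested genes of each list (number in parentheses) called lower (blue, left) or higher (red, right) in NZO, WSB, PWK and Cast, each against the other 7 strains. All 33 NK receptor and adaptor genes are higher in NZO, and all 21 T cell genes are lower in Cast.

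In Cast 19 of 33 NK receptor and adaptor genes were lower and 1 higher (median −1.41; 26.6% and 29.6% of all genes), with Klra13-ps (−3.60 ± 0.65), Cd226 (−2.39 ± 0.22) and Slamf6 (−1.19 ± 0.30) lower and Klra2 (1.00 ± 0.29) higher. All 21 T cell genes were lower (median −1.85). The granule list was split, with 6 of 15 lower, such as Unc13d (−1.42 ± 0.15) and Serpinb9 (−0.69 ± 0.09), and 4 higher, Stx11 (0.73 ± 0.23), Rab27a (0.65 ± 0.22), Srgn (0.30 ± 0.14) and Gzmm (0.84 ± 0.30), the last a granzyme gene that moved against Gzma and Gzmb. Of the ligands 4 of 9 were lower, with Clec2i (−4.23 ± 0.25) and Ulbp1 (−1.90 ± 0.25) largest, and Pvr (0.77 ± 0.13) and Raet1e (3.60 ± 0.58) were higher. Cytokine and receptor genes were lower in 7 of 15 and higher in 4, with Il2rb (−2.34 ± 0.22) and Il18r1 (−2.23 ± 0.24) lower and Il15ra (1.36 ± 0.15) higher. Transcription factors were lower in 8 of 13 and higher in 2, Nfil3 (1.75 ± 0.30) and Ikzf2 (0.41 ± 0.18), and chemokine genes lower in 9 of 18 and higher in 2. Il18 was also higher in Cast (0.65 ± 0.15).

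In NZO most markers of other immune cell types were called higher, as the members were. The counts were 19 of 21 T cell, 5 of 5 B cell, 3 of 4 macrophage, 4 of 4 mast cell and 5 of 5 neutrophil markers (27.2% of all genes). In other lists, markers were called lower in NZO (26.6% of all genes). These were 4 of 4 mesothelium (median log2 fold change −1.78), 3 of 5 adipocyte, 3 of 4 skeletal muscle and 2 of 5 liver markers. Of the adipocyte markers 1 was called higher, as were 2 of 5 lymph node stroma markers. Lists did not always follow the members in other strains. In WSB all 5 B cell and all 4 mast cell markers were called lower (23.7% of all genes), with 2 members higher and 2 lower. In Cast all 5 B cell markers were called lower, as the members were. Single AJ libraries reached sums of 1747 CPM (muscle) and 1300 CPM (liver). The median muscle sum in NZO, 17.6 CPM, lay above PWK (1.39), WSB (7.98) and Cast (8.91). It lay below 129 (32.8), AJ (37.6), B6 (42.3) and NOD (34.7). The median liver sum was 19.9 CPM in NZO and from 20.8 (NOD) to 124 CPM (PWK) in other strains. The part of these cell types in the results was not tested. Summed macrophage markers ran from 592 to 1532 CPM in NZO, from 257 to 743 CPM in B6 and from 165 to 319 CPM in Cast. Summed T cell markers ran from 50.8 to 128 CPM in NZO, from 52.7 to 80.6 CPM in B6 and from 8.15 to 21.3 CPM in Cast. Summed B cell markers ran from 11.2 to 176 CPM in NZO, from 13.4 to 30.8 CPM in B6 and from 0.927 to 5.46 CPM in Cast. Without NZO replicate 8, which holds the highest neutrophil (3227 CPM), B cell (176 CPM) and lymph node stroma (407 CPM) sums, all 9 members were still called higher in NZO. Neutrophil sums in NZO had a lowest value of 6.39 CPM and a median of 19.8 CPM. The marker lists were not counted without that library, so how far their calls rest on it was not tested.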

How the data were processed

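Adipose RNA was made into poly(A)-selected libraries with a spike-in control, per the labels' protocols. The authors deposited expected counts per gene, in which a read matching several genes is divided among them, and log2 values from the variance-stabilising transformation of DESeq2. The build was GRCm38, the genome of B6, per the submitters' processing notes. The aligner and counting tool are not given in the sources used here, and any effect of mapping other strains to B6 was not tested. After rounding, filterByExpr set aside 2566 scarce genes, and 18603 were fitted in edgeR 4.0.16 under R 4.3.3 (TMM, robust quasi-likelihood test, 1 mean per strain). Calls needed p under 0.05 after Benjamini-Hochberg adjustment over all genes tested, 2-sided. Log2 CPM used a prior count of 2. Ratio tests permuted strain labels 100000 times. Libraries held 19851552 to 61277574 counts, and the members' precision is limited by reads counted per library (0 to 418 for the members). Members and lists were chosen with earlier results of these data known. From each list the text names up to 4 called genes of at least 1 CPM with the largest changes, any called in the other direction, and genes outside this rule (Gzmm, Raet1e, Eomes, Klrb1a, Klrb1b, Klrb1f and Cd3e), some chosen after their values were seen; 1 gene that the rule names is not reported here. Alternatives were DESeq2 1.42.0, limma 3.58.1 on the deposited log2 values, RLE factors, other filters, replicate number as a block, Xist as a covariate and left-out libraries. The procedure was tested on simulated data.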

Additional observations from a re-analysis of the deposited data

Results flagged for a closer look

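Of 72 groups of 1 gene in 1 strain, 8 held a library whose gap to the nearest other library was large for the range of its group (Dixon's criterion), and chance flags about 1 in 20 groups. Nkg7 had 9.25 CPM in NZO replicate 8, against 2.07 to 3.47 CPM in the other NZO libraries, and that library also held 3227 CPM of neutrophil markers and the highest B cell sum. Klrk1 had 6.41 CPM in NZO replicate 5, the others lying between 2.42 and 4.2 CPM. Gzma was low in B6 replicate 7 at 0.648 CPM, with the others at 1.18 to 1.47 CPM. Gzmb was high in B6 replicate 4 at 0.919 CPM, above 0.399 to 0.627 CPM in the others, and in PWK replicate 6 at 0.638 CPM, above 0.117 to 0.361 CPM; the PWK library held 394 CPM of neutrophil markers. Klrd1 stood at 0.493 CPM in 129 replicate 6 and at 0.71 CPM in WSB replicate 3, above 0.182 to 0.305 CPM and 0.192 to 0.374 CPM in the other libraries of these strains. Ncr1 had 0.909 CPM in 129 replicate 2, where the others had 0.637 to 0.729 CPM.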

How the results depend on the processing

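All 9 members stayed higher in NZO and all 9 lower in Cast under RLE factors, no filter, DESeq2, limma, the Xist covariate and the left-out libraries, apart from Klrb1c in Cast (−0.35, adjusted p = 0.332, without Cast replicates 5 and 6). A filter of at least 1 mean CPM tested 6 members and called all 6 in both strains. Over all genes it called 8357 of 14398 in NZO and 8799 of 14398 in Cast, in either direction. The count of members called in 129 went to 2 with DESeq2 and 3 with limma on the variance-stabilised values, against 1 in edgeR, with Prf1 and then Klrd1 added. Over all genes, 3981 of 21169 were called in 129 with DESeq2, 3357 of 21169 with limma and 3451 of 18603 in edgeR. In PWK 3 were called, against 7, without the libraries rich in liver, muscle or neutrophil transcripts, an alternative chosen after seeing the data. There 5070 of 19090 genes were called in PWK, against 8105 of 18603 with all libraries. The log2 fold changes of the lost calls were then −0.82 for Prf1, −0.98 for Nkg7, −0.75 for Klrd1 and −0.32 for Ccl5. With all libraries those of Prf1 and Nkg7 were −0.84 and −1.20, and those of Klrd1 and Ccl5 shrank more. The cause was not tested. With limma the calls of Nkg7 in B6 and WSB and of Ccl5 in NOD were also lost (adjusted p = 0.109, 0.186 and 0.123). Some calls were gained under 1 or more of DESeq2, limma, the Xist covariate and the left-out Cast or WSB libraries, namely Prf1 lower in NOD, Ncr1 lower in PWK and Gzmb and Klrd1 lower in WSB. No result changed direction. The labels do not say that a replicate number marks a shared batch. Same-numbered libraries of different strains had a median r of 0.11 in their deviations from strain means (range −0.44 to 0.56; 96 of 186 pairs over 0.1), against −0.0184 for libraries with different numbers (418 of 1441 pairs), and 21 of 61 libraries were closest to one of their own number, a hint from the data and not from the design. With the replicate number as a block, 9 members were called in NZO, 9 in Cast, 7 in PWK, 6 in B6 and 1 in 129. Of 18603 genes, 9950 were then called in NZO, 10399 in Cast, 7998 in PWK, 5016 in B6 and 3137 in 129. With that block strain accounted for 81.5% of the variance of the Klrb1c to Ncr1 ratio. A planned ratio with Gzmk was not run. Low levels rest on few reads, 0 to 5 per library for Gzma and Klrd1 in Cast, which limits their precision.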
